A study of Mus musculus with 36 samples.

Results

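Ldb3, Fhl2 and Asb2 are 3 genes whose products are tied to the contractile apparatus of heart muscle, and their loci were read here from ATAC-seq of mouse hearts after myocardial infarction. A region was taken as a member when it overlapped the mm9 window chr14:35320000-35420000 for Ldb3, chr1:43150000-43280000 for Fhl2 or chr12:104500000-104620000 for Asb2. The windows held 151 of the 122759 regions in the 9 deposited lists, of which 59 were at Ldb3, 38 at Fhl2 and 54 at Asb2. On days 4, 7 and 14 the windows held 44, 68 and 39 regions. The loci were proposed with their sham and border zone tags already seen, so they were chosen by the same tags that are compared below, and the contrast between the conditions is a description with no test.

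ATAC-seq uses a transposase that inserts sequencing adapters into accessible DNA, so the number of tags in a region rises with how open its chromatin is. The study compared border zone nuclei, taken from living muscle next to the infarct, with nuclei from sham-operated left ventricle of FVB/N mice, with 1 library for each condition on days 4, 7 and 14 after surgery. The day 4 libraries, sham and border zone alike, are described as PCM1-sorted nuclei from Cdh5-Cre; Sun1-sfGFP mice, with a GFP sort named beside the PCM1 pulldown, and no tamoxifen is listed for them. Cdh5-Cre is a driver active in endothelial cells, while PCM1 marks cardiomyocyte nuclei. Which nuclei the day 4 libraries hold is therefore unresolved, and every day 4 value below carries that limit. Both conditions of days 7 and 14 came from Myh6-MerCreMer;nTnG mice given tamoxifen at 20 mg/kg, with 50000 sorted nuclei per sample. The Myh6 driver acts in cardiomyocytes, and the labels of these days also name a Gt(ROSA)26Sor CAG-Sun1/sfGFP line. The sources used here do not give age, sex or whether animals were pooled. Since the mouse line, the way nuclei were obtained and the aligner all change between day 4 and the later days, these cannot be told apart from time. No RNA sample, of which the series has 30, was analysed here.

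LDB3, also called ZASP or Cypher, is a PDZ-LIM protein that binds alpha-actinin at the Z-disc, the structure that anchors the thin filaments at the ends of each sarcomere. FHL2 is a protein built of LIM domains that binds titin in the sarcomere and also enters the nucleus, where it acts as a transcriptional coregulator, among others of serum response factor. ASB2 is the substrate-binding subunit of a cullin ubiquitin ligase that sends filamins, actin crosslinking proteins, to degradation. The expression of many sarcomere genes is controlled by serum response factor, which binds the CArG box, and by MEF2 and GATA factors.

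The promoters of the 3 genes are shown because each holds a match to the CArG box, a feature that played no part in the choice of the loci. The sequences are the 250 bases before the start sites in RefSeq on GRCm38.p6, all on the minus strand and written 5′ to 3′, with the CArG box in capitals. They lie at chr14:34588682-34588931 for Ldb3, chr1:43196762-43197011 and chr1:43163962-43164211 for start sites 1 and 2 of Fhl2, and chr12:103356002-103356251 for Asb2.
Ldb3: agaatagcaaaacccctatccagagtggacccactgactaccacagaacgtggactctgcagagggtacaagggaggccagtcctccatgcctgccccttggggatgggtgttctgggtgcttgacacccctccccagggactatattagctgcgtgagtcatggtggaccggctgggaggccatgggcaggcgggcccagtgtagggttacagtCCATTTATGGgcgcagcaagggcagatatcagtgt
Fhl2 start site 1: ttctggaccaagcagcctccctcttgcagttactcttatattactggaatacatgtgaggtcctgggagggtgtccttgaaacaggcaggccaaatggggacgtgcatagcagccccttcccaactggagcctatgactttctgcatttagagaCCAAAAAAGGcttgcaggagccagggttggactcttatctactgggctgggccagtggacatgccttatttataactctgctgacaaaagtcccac
Fhl2 start site 2: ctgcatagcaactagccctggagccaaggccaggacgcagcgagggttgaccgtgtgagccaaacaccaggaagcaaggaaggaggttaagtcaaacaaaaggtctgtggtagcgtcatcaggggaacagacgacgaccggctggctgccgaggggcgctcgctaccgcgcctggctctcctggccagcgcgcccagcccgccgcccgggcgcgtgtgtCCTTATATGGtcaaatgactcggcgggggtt
Asb2: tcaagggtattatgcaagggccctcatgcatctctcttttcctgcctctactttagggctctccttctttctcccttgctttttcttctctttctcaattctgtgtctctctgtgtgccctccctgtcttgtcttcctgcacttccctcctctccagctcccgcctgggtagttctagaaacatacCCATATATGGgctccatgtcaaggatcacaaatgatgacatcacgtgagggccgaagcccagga
RefSeq gave 6 promoter records for the 3 genes, and 5 of the 6 had a CArG box, searched on both strands. The exception was the second start site of Asb2, and the box of Ldb3 is shared by both of its overlapping records. The matches were CCATTTATGG at Ldb3, CCAAAAAAGG and CCTTATATGG at the start sites of Fhl2, and CCATATATGG at Asb2. Among all 32841 RefSeq promoters of this length, 1.47% held a CArG box. The box began 35 bases before the Ldb3 start, 96 and 31 bases before those of Fhl2, and 64 bases before that of Asb2. Other searched motifs were each found in 1 of the genes. The first start site of Fhl2 held a MEF2 site that overlapped a TATAAA match, and an AGATAA match, and Ldb3 held a TGANTCA match. Of all promoters, 2.92% held the MEF2 site, 12.4% TATAAA, 9.99% AGATAA and 6.75% TGANTCA, each searched on both strands. The motifs were chosen after the sequences had been seen, and a match describes letters only. Because the promoters are on GRCm38.p6 and the deposited regions on mm9, no promoter was placed on a region.

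The lists sort regions into differential and not differential. The smallest fold among differential member regions was 1.751. In every listed region, differential or not, the larger value reached 35, 50 and 150 tags or more on days 4, 7 and 14. The authors scaled the border zone tags to the sham library, other than those not differential on day 4, which are counts. Listed values are used here unless stated, so day 4 sums mix scaled and unscaled values. A region higher in sham is called sham-higher, and the others are border zone-higher or not differential. A stretch absent from a list has no measured value. The listed regions summed to between 3858892 and 13936013 sham tags a day, while full library depth is unknown. The log2 ratio, border zone over sham, had a median over all regions of -0.09, -0.14 and 0.03 on the 3 days in turn. With 1 library per condition and day there is no spread between replicates, and the 95% intervals below, from the exact Clopper-Pearson interval of the border zone share of tags, cover counting error only. Fewer nuclei with an open region and less opening per nucleus cannot be told apart in these pooled nuclei.

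The listed tags do not scale simply with listed width. On day 4 the median sham tags of not differential regions that touch no other region were 62 at 1 kb, 165 at 1.5 kb and 268 at 2 kb. Regions of 0.5 kb that touch another had a median of 63 tags, and all 20 member regions of that width touched another. The sources used here do not say how tags were added up in wide or split regions. Tags per kb therefore depend on how a stretch was divided and are given below for whole windows only, and the intervals take each tag as counted once. Touching regions belonged to different lists in 78 of 78 member pairs, and in 10682 of 10682 pairs over all listed regions. In these lists a single open stretch thus appears as several regions where its call changes along its length. Counts of regions are given together with their length for that reason.

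All 3 loci were lower in the border zone than in sham on days 7 and 14, by the sum of their listed tags. On day 7 the 3 windows together held 28589 sham and 14857 border zone tags, a 1.92-fold difference with an interval of 1.88 to 1.97. Day 14 gave 66690 and 45209 tags, 1.48-fold with 1.46 to 1.49. Day 4 gave 19862 and 17291 tags, 1.15-fold with 1.13 to 1.17. Of these day 4 border zone tags, 16518 were unscaled counts of not differential regions. Each of the 3 genes had its smallest difference on day 4 and its largest on day 7.

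Sham-higher regions made up 6 of the 44 member regions on day 4, 33 of 68 on day 7 and 11 of 39 on day 14. Over all listed regions the shares of sham-higher were 7.37%, 22.0% and 6.75%. Because the loci were proposed from this contrast, nothing is read from the members' shares. With a fold of at least 2 in place of the listing, 0, 25 and 4 member regions remained sham-higher, beside 3.49%, 14.5% and 2.85% over all. Border zone-higher regions were 8 of 44 on day 4, with 12.2% over all regions, and 0 on days 7 and 14, with 17.5% and 13.4% over all. By length, 71.6% of the listed member sequence was sham-higher on day 7, with 5.19% on day 4 and 18.4% on day 14. Of everything listed on those days, 22.8%, 6.15% and 6.05% of the length was sham-higher.

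**Figure D1:**
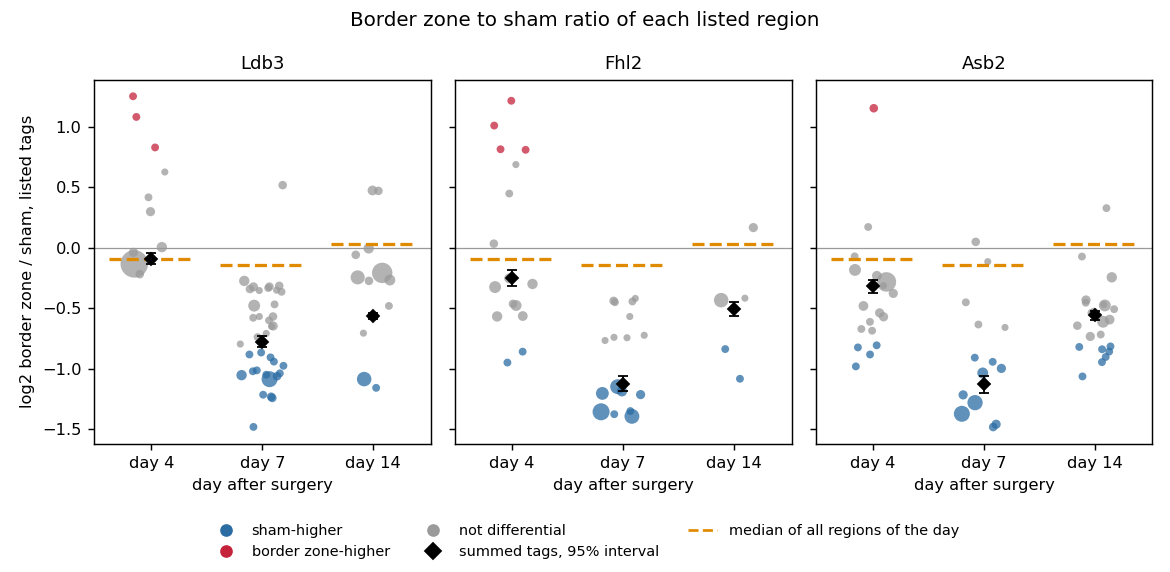
Log2 ratio of listed border zone to sham tags (y axis) of every listed region of the 3 windows by day after surgery (x axis). Circles are regions, larger with greater width and coloured by the authors' list, diamonds are the ratio of summed tags with its 95% counting interval, and dashed lines are the median of all regions of the day. All summed ratios lie below 0, between -0.09 for Ldb3 on day 4 and -1.13 for Fhl2 and Asb2 on day 7.

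At Ldb3 sham was higher on days 7 and 14, and much of the day 14 difference lay in a single listed block. The Ldb3 window summed on day 4 to 8986 sham and 8438 border zone tags, on day 7 to 14122 and 8241, and on day 14 to 43095 and 29066. Summed listed tags were higher in sham on all 3 days. The day 4 difference was 1.06-fold with an interval of 1.03 to 1.10, which covers counting error only. Day 7 gave 1.71-fold with 1.66 to 1.77, and day 14 gave 1.48-fold with 1.46 to 1.51. The direction on day 4 depends on the scaling. With the median of all regions of that day set to 0, the log2 ratio of the sums was -0.00024. Scaled by the sum of listed tags it was 0.02. Of the 10 regions of day 4, 3 had fewer border zone than sham tags, beside 56.4% of all listed regions.

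The centre of the locus was a block of open chromatin that carried more sham tags than nearly every other listed region. On day 14 the region chr14:35380751-35388250, 7.5 kb wide, had 21336 sham and 10040 border zone tags, and it ranked 1 of 40980 by sham tags. Sham was 2.13-fold higher there, with an interval of 2.07 to 2.18. The region to its left, chr14:35364251-35380750, had 11274 and 9750 tags, a 1.16-fold difference, and was not differential. The region to its right, chr14:35388251-35391750, had 1645 and 1366 tags, a 1.20-fold difference. Listed regions are divided where the call changes, so neighbours that are not differential follow from the division and are no separate finding. Without it, the Ldb3 window on day 14 fell to a 1.14-fold difference.

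On day 7 the matching block, chr14:35379751-35389250, 9.5 kb wide, had 5991 sham and 2818 border zone tags, again 2.13-fold higher in sham, with an interval of 2.02 to 2.24. It ranked 2 of 34952 by sham tags. The regions touching it, chr14:35376751-35379750 with 980 and 810 tags and chr14:35389251-35390250 with 243 and 189, were not differential. Without the block the window was still 1.50-fold higher in sham on day 7. On day 4 the same sequence lay inside 1 listed region, chr14:35360251-35391750, 31.5 kb wide, with 7439 sham and 6775 border zone tags. That region ranked 2 of 46827 by sham tags, was the widest of its day and was not differential at 1.10-fold. A smaller difference over part of it cannot be seen in a single value. Without this region the Ldb3 window on day 4 was higher in the border zone, with sham at 0.930 of the border zone. Of all listed regions at least 5 kb wide, 1.09% were sham-higher on day 4 and 33.1% on day 7. On day 14 they were 2 of 86, or 2.33%, with 1 of them this block.

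Across the Ldb3 window, the calls of day 7 were spread over many short regions. Of 37 regions, 16 were sham-higher, 21 were not differential, and 36 had fewer border zone than sham tags, beside 55.6% of all listed regions of that day. The largest fold of the window was at chr14:35392251-35393250, with 64 sham and 22.9 border zone tags, 2.80-fold with an interval of 1.62 to 5.09. On day 14 the overlapping region chr14:35392751-35393750 had 193 and 86.4 tags, a 2.23-fold difference with 1.67 to 3.02. The joined locus chr14:35392251-35395250 was therefore sham-higher on both days, with 387 and 229 tags on day 7 and 409 and 219 on day 14, and was not listed on day 4. The wide locus around the block, chr14:35355751-35392250, held 8305 tags in sham and 7684 in the border zone on day 4, which became 10974 and 6228 on day 7 and 39430 and 25518 on day 14. Its difference grew from 1.08-fold on day 4 to 1.76-fold on day 7, and it was 1.55-fold on day 14.

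Not every Ldb3 region was lower in the border zone. All 3 differential regions of day 4 were border zone-higher, with 20 sham and 47.6 border zone tags at chr14:35319251-35320250, 36 and 63.9 at chr14:35341251-35342250, and 37 and 78.2 at chr14:35355751-35356750. Each had few tags, and the first crosses the edge of the window. The locus chr14:35353251-35355750 held more border zone than sham tags on all 3 days. Day 4 was at 127 and 156, day 7 at 198 and 234, and day 14 at 701 and 972 in sham and border zone. Sham over border zone had intervals of 0.64 to 1.04 on day 4 and 0.69 to 1.04 on day 7, which include 1. On day 14 the interval was 0.65 to 0.80. On day 7 that locus still contained a sham-higher region, chr14:35354751-35355750, with 52 and 25.6 tags. The sum and the call thus pointed in opposite directions there.

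**Figure D2:**
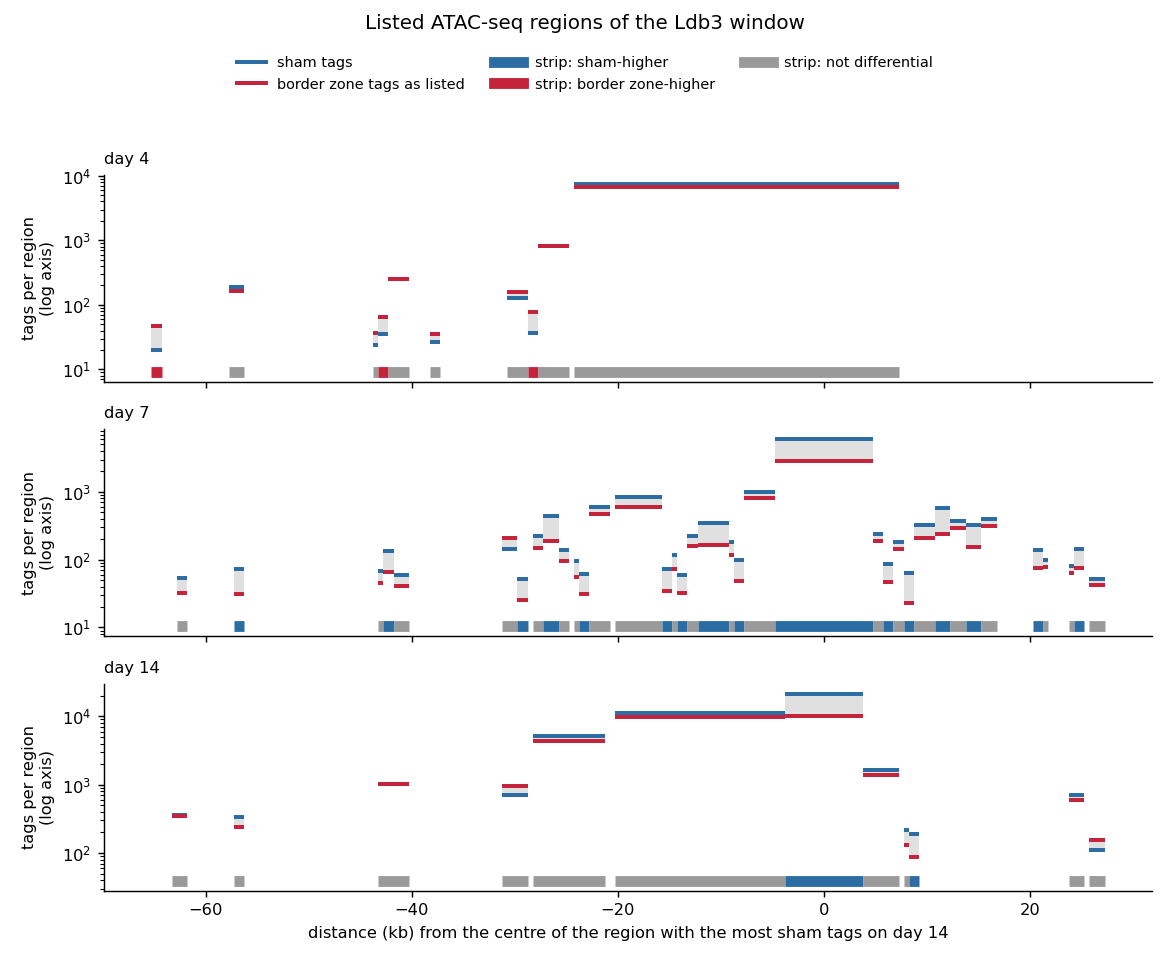
Listed regions of the Ldb3 window by day, drawn by their distance in kb from the centre of the 7.5 kb block of day 14 (x axis), with tags per region on a log axis (y axis). Blue and red bars are sham and border zone tags as listed, the shading joins them, and the strip gives the authors' list. The central block is the region with the most sham tags on days 7 and 14, while on day 4 its sequence lies inside a region of 31.5 kb and has no bars of its own.

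Fhl2 showed the largest change in which sequence was listed at all. For the whole window the day 4 sums were 3876 sham and 3251 border zone tags, those of day 7 were 8499 and 3891, and those of day 14 were 6002 and 4220. Sham was 1.19-fold higher on day 4 with an interval of 1.14 to 1.25, 2.18-fold on day 7 with 2.09 to 2.28, and 1.42-fold on day 14 with 1.36 to 1.48. These sums rest on different sequence. Of 75 kb listed on any day, 64.5 kb was listed on 1 day alone and 2 kb on all 3.

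The day 7 value came from 1 stretch, chr1:43176251-43219250, 43 kb long, where touching regions followed each other without a break. It had 8171 sham and 3692 border zone tags, a 2.21-fold difference, and no region of it stood in the day 4 or day 14 lists used here, so it has no value on those days. In this stretch 7 sham-higher regions alternated with 7 short regions that were not differential. The folds of the sham-higher regions ran from 2.22 to 2.63, and those of the others from 1.34 to 1.68. The most tags were at chr1:43185251-43196250, 11 kb wide, with 2161 sham and 843 border zone tags, 2.56-fold with an interval of 2.34 to 2.81. The largest fold was at chr1:43176751-43184750, 8 kb wide, with 1800 and 684 tags, 2.63-fold with 2.38 to 2.91. All 14 regions of the stretch thus had fewer border zone than sham tags.

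On days 4 and 14 the listed sequence of Fhl2 lay outside that stretch. On day 4 the most tags were at chr1:43252751-43255750, with 972 sham and 789 border zone tags, and it was not differential at 1.23-fold. The sham-higher regions of that day were chr1:43232751-43233750 with 66 and 34.1 tags, the larger fold at 1.93, and chr1:43227251-43228250 with 66 and 36.3. On day 14 the most tags were at chr1:43232751-43240250, 7.5 kb wide, with 2832 and 2095, a 1.35-fold difference that was not differential. The region touching it, chr1:43240251-43241250, had 730 and 344 tags, 2.12-fold with an interval of 1.84 to 2.46, and was sham-higher. The border zone values carried different scaling factors, 1.18 for the wider region and 1.37 for the other, so their folds are not on the same scale. Neither of these day 14 regions was listed on day 7.

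A single Fhl2 locus, chr1:43252751-43255750, was sham-higher on more than 1 day. Its day 4 tags were 972 in sham and 789 in the border zone, followed by 211 and 113 on day 7 and by 1919 and 1197 on day 14. Sham was 1.23-fold, 1.86-fold and 1.60-fold higher, and the calls were made on days 7 and 14. The sham-higher regions within it did not overlap, with chr1:43254751-43255750 on day 7 at 55 and 21.6 tags and chr1:43253251-43254250 on day 14 at 1261 and 705.

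Near the low-coordinate end of the Fhl2 window the border zone was higher on day 4. Within chr1:43168251-43176250, 4 regions were border zone-higher, with 37 sham and 65.0 border zone tags, 26 and 45.5, 18 and 36.2, and 38 and 88.1 from left to right. The locus chr1:43173251-43176250 there had 307 and 466 tags on day 4, 117 and 86.2 on day 7, then 521 and 584 on day 14. By listed tags it was thus higher in the border zone on days 4 and 14 and lower on day 7. Sham over border zone had an interval of 0.99 to 1.87 on day 7 and 0.78 to 1.02 on day 14, and both include 1. The locus was border zone-higher by call on day 4 alone.

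**Figure D3:**
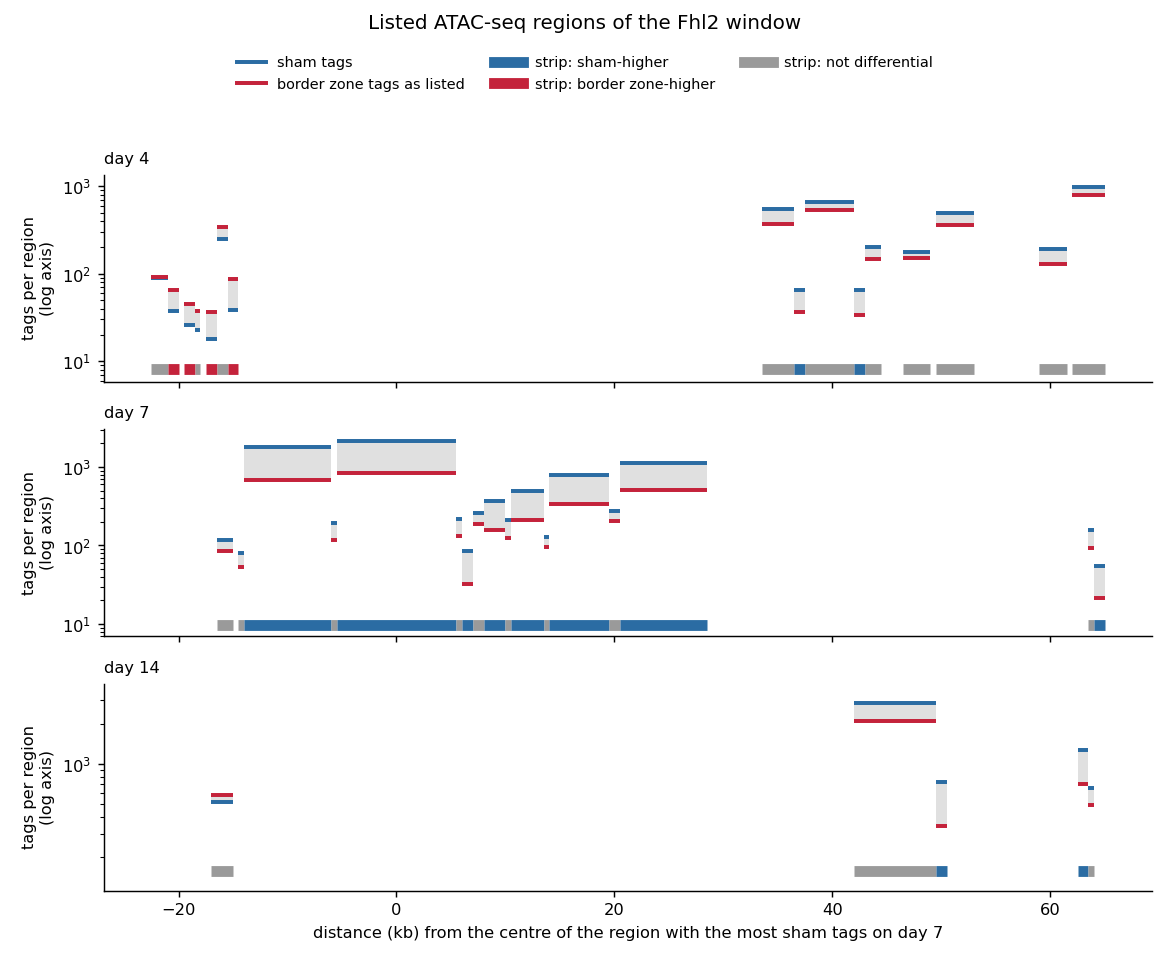
Listed regions of the Fhl2 window by day, drawn by their distance in kb from the centre of the region with the most sham tags on day 7 (x axis), with tags per region on a log axis (y axis). Blue and red bars are sham and border zone tags as listed, the shading joins them, and the strip gives the authors' list. The 43 kb stretch of day 7 has no bars on days 4 and 14, where it has no measured value.

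At Asb2 sham was higher in nearly all listed regions on each day. Its day 4 sums were 7000 sham and 5602 border zone tags, those of day 7 were 5968 and 2725, and those of day 14 were 17593 and 11924. Sham was 1.25-fold higher on day 4 with an interval of 1.21 to 1.29, 2.19-fold on day 7 with 2.08 to 2.30, and 1.48-fold on day 14 with 1.44 to 1.51. Fewer border zone than sham tags were listed in 16 of 18 regions on day 4, 13 of 14 on day 7 and 21 of 22 on day 14. Over all listed regions the shares were 56.4%, 55.6% and 48.2%. Removing the region with the most tags left the differences at 1.27-fold, 2.06-fold and 1.49-fold, so no single region carried them.

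The widest open part of the window, the locus chr12:104548751-104572750, was the only locus of the 3 windows that contained sham-higher regions on all 3 days. Day 4 gave 3714 sham and 3020 border zone tags there, day 7 gave 3774 and 1603, and day 14 gave 8831 and 5975. Sham was 1.23-fold higher with an interval of 1.17 to 1.29, 2.35-fold with 2.21 to 2.52, and 1.48-fold with 1.43 to 1.53. How the locus was divided differed by day. On day 7 it was mostly 2 wide sham-higher regions. These were chr12:104553751-104563250, 9.5 kb wide with 1697 sham and 655 border zone tags, a 2.59-fold difference, and chr12:104563751-104572250, 8.5 kb wide with 1579 and 649, a 2.43-fold difference. On day 4 the main region was chr12:104548751-104563750, with 2623 and 2154 tags, and on day 14 it was chr12:104557251-104561750, with 2474 and 1776. Neither was differential, at 1.22-fold and 1.39-fold. On those days the sham-higher calls of the locus were regions of 1 kb, among them chr12:104561751-104562750 on day 14 with 198 and 94.6 tags, 2.09-fold with an interval of 1.58 to 2.79, the largest fold of the window on that day.

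At higher coordinates, 2 regions were listed with the same bounds on each day, which allows their values to be set side by side. The region chr12:104596251-104598250 held 522 tags in sham and 351 in the border zone on day 4, then 482 and 175 on day 7 and 1472 and 884 on day 14. Sham was 1.49-fold, 2.75-fold and 1.66-fold higher, with intervals of 1.30 to 1.71, 2.26 to 3.37 and 1.52 to 1.83. The region chr12:104599751-104601750 had 697 and 536 tags, 517 and 222, and 2088 and 1440, which is 1.30-fold, 2.33-fold and 1.45-fold higher in sham. Both regions were sham-higher by call on day 7 alone, and in both the day 7 interval lies above those of days 4 and 14. These intervals cover counting error only, the day 4 border zone values are unscaled counts, and the difference between days was not tested. The neighbouring locus chr12:104604751-104607250 was sham-higher on days 7 and 14, with day 4 tags of 429 and 307, day 7 tags of 386 and 202, and day 14 tags of 769 and 513. It contained the largest fold of the window on day 7, 162 against 57.9 tags at chr12:104604751-104606250, 2.80-fold with an interval of 1.99 to 4.01.

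Between these parts lay the sites of Asb2 with more border zone than sham tags on some days, along with sites that were lower. The region chr12:104584751-104586250 was border zone-higher on day 4 with 59 sham and 131 border zone tags, 2.22-fold with an interval of 1.61 to 3.09. The locus chr12:104580751-104582750 held 32 and 36.0 tags on day 4, 133 and 137 on day 7, then 163 and 204 on day 14, and was not differential on any day. On day 4 the largest sham-higher fold of the window, 1.98, was nearby at chr12:104579751-104580750, with 74 and 37.4 tags. The locus chr12:104590251-104592750 had 963 and 819 tags on day 4 and 2362 and 1469 on day 14, and was not listed on day 7. Sham was 1.18-fold and 1.61-fold higher there. On day 14 it held a sham-higher region, chr12:104591751-104592750, with 575 and 326 tags.

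**Figure D4:**
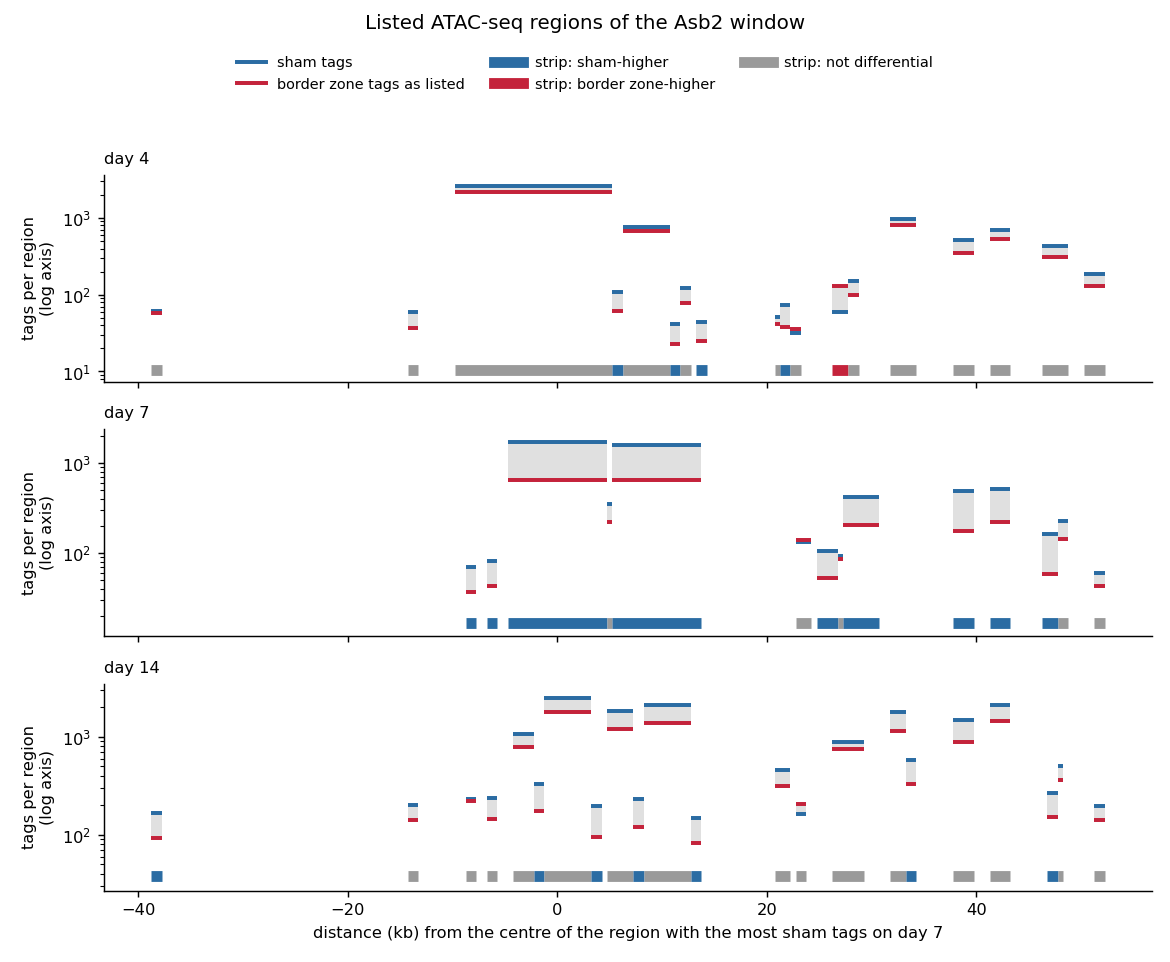
Listed regions of the Asb2 window by day, drawn by their distance in kb from the centre of the region with the most sham tags on day 7 (x axis), with tags per region on a log axis (y axis). Blue and red bars are sham and border zone tags as listed, the shading joins them, and the strip gives the authors' list. Sham bars lie above border zone bars in 16 of 18 regions on day 4, 13 of 14 on day 7 and 21 of 22 on day 14.

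Levels were compared between the genes as tags per kb of listed sequence, scaled to 1000000 tags summed over all listed regions of the library. Sham levels use the listed tags. Border zone levels use whole tags, recovered by undoing the authors' scaling. In sham, Ldb3 stood highest on each day, at 34.2, 65.4 and 65.8 on days 4, 7 and 14. Asb2 came next on day 4 at 28.6, above Fhl2 at 22.2. On day 7 Fhl2 was at 47.9 and Asb2 at 43.6, and on day 14 they were at 35.9 and 35.1, with counting intervals that overlap. In the border zone Ldb3 was at 34.6, 39.8 and 43.7, again the highest. Fhl2 was at 20.0, 22.9 and 26.8 and Asb2 at 24.6, 20.8 and 23.7. Ldb3 had the widest regions on days 4 and 14. The part that region width and division had in these levels was not tested, so the order is one of these values only.

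The comparison of days was also made on joined loci with a listed region on every day, a restriction chosen after seeing the data. These loci still hold some sequence that was not listed on every day. Sham was 1.07-fold, 1.73-fold and 1.50-fold higher at Ldb3 on days 4, 7 and 14. Fhl2 gave 1.02-fold, 1.65-fold and 1.37-fold, from 6, 3 and 3.5 kb, and Asb2 gave 1.26-fold, 2.19-fold and 1.45-fold. The differences between days were not tested, and the day 4 libraries differ in mouse line and isolation. With the median of all regions of the day set to 0, the whole windows were 1.55-fold, 1.98-fold and 1.98-fold higher in sham at Ldb3, Fhl2 and Asb2 on day 7, and 1.52-fold, 1.35-fold and 1.50-fold on day 14. The direction on both days was thus the same under either scaling, while on day 7 the values were smaller.

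Within the 3 windows, most sham-higher sequence of day 14 was also sham-higher on day 7, when 71.6% of all listed member sequence was sham-higher. Of the 17.5 kb called on day 14, 13.5 kb was listed on day 7 and 13 kb was sham-higher there. Of 54 joined loci, 13 were listed on all 3 days, 5 held sham-higher regions on at least 2 days and 1 on all 3. Shares over all listed regions were not computed for these overlaps, and the loci were chosen by this contrast, so nothing is read from them. Sequence that was sham-higher on both day 7 and day 14 came to 8 kb at Ldb3, nearly all of it the central block, to 5 kb at Asb2 and to 0 kb at Fhl2. Sham-higher sequence on all 3 days was 0.5 kb, at Asb2.

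**Figure D5:**
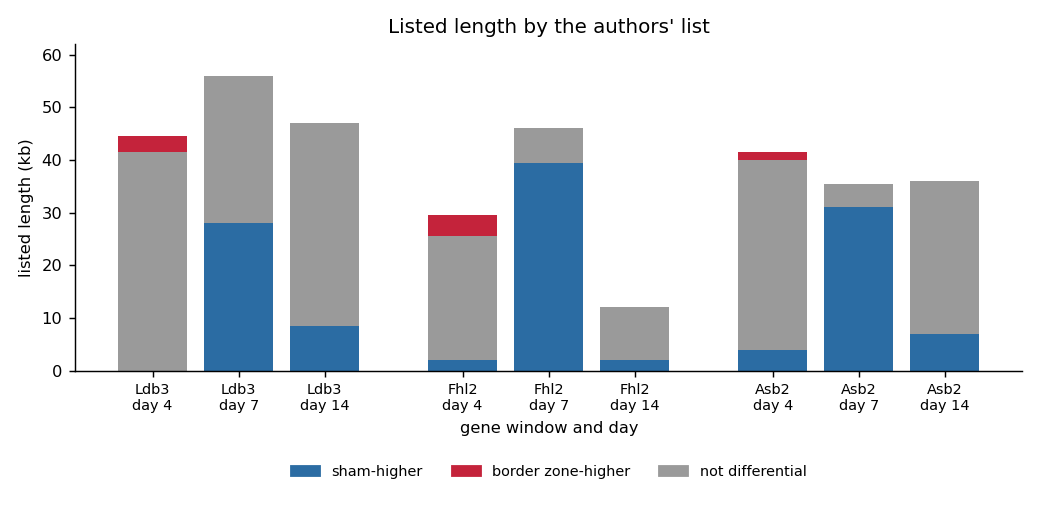
Length of listed sequence in kb (y axis, from 0) in each gene window and day (x axis), stacked by the authors' list. On day 7 sham-higher sequence reached 28 of 56 kb at Ldb3, 39.5 of 46 kb at Fhl2 and 31 of 35.5 kb at Asb2, while on day 4 it was 0, 2 and 4 kb.

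The windows were placed among 1590 windows of 100 kb on a fixed grid that had at least 5 listed regions on each day. On day 7, 10.3% of these windows had a ratio of border zone to sham at or below that of Ldb3, 1.19% at or below that of Fhl2 and 1.19% at or below that of Asb2. On day 14 the shares were 1.82%, 3.27% and 2.01%, and on day 4 they were 55.4%, 21.2% and 10.9%. These are positions in an ordering from which the loci had been picked. The windows closest to each gene over the 3 daily log2 ratios were chr8:32200001-32300000 for Ldb3, at a distance of 0.10, chr17:27700001-27800000 for Fhl2, at 0.07, and chr16:7000001-7100000 for Asb2, at 0.06.

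Regions listed near the edges of the windows differed in their tags. At Ldb3 the outermost region on the left had 20 sham and 47.6 border zone tags on day 4. On day 14 it was chr14:35321251-35322750, with 366 and 351. The nearest region outside, chr14:35318251-35319250 on day 14, had 151 and 93.2. For the other windows the nearest region outside lay at least 7.75 kb away, at chr12:104627751-104628750 for Asb2 with 20 and 40.3 tags on day 4. In RefSeq gene order on GRCm38.p6, Ldb3 lies between 9230112D13Rik and Opn4, Fhl2 between AI597479 and Nck2, and Asb2 between Fam181a and Otub2. Regions were not assigned to exons, introns or these neighbours, since no mm9 annotation was used here, and for the same reason the labelled cell type was not checked against marker genes.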

How the data were processed

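ATAC-seq regions of 6 libraries were read from 9 deposited lists, 1 sham-higher, 1 border zone-higher and 1 not differential list per day. The submitters' processing notes name Bowtie2 for day 4, BWA for days 7 and 14, and on all days bedtools and the build mm9. The sources used here give no versions and no region caller. Per the labels, day 4 was sequenced with paired reads of 76 bp. Per the file headers, sham tags are deposited counts. Border zone tags are a deposited signal that the authors scaled, other than those not differential on day 4, which are counts. The factors (day 4 1.00, 1.03 and 1.10, day 7 1.17 and 1.35, day 14 1.18 and 1.37) were read from the values, of which 97.6% of 85106 were whole numbers times a factor within 0.001%. Whole tags recovered this way served only for intervals, other scalings and the border zone levels per kb.

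The members, lists and named regions were chosen with earlier results of these data known. Named were, per window and day, the region with the most sham tags, the sham-higher region with the largest fold and every border zone-higher region, and per window each locus sham-higher on at least 2 days. A few touching or recurring regions were added after their values were seen. Loci join regions of different days that share at least 1 bp. A fold is the ratio of listed tags, summed where regions are joined. No test was run, and 0 unmapped columns were used. The scripts, in Python 3.11.15 with scipy 1.17.1, were tested on simulated data. Marker genes and other sarcomere genes were not used, since no mm9 annotation was given. Tags carry no molecular identifiers and are not independent molecules. Coordinates are counted from 1.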

Additional observations from a re-analysis of the deposited data

Results flagged for a closer look

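At 2 places the call turned between days, and with 1 library per condition and day the difference was not tested. At Ldb3, chr14:35341251-35342250 was border zone-higher on day 4, with 36 sham and 63.9 border zone tags and a log2 ratio of 0.83. The region overlapping it on day 7 was sham-higher, with 134 and 64.7 tags and a log2 ratio of -1.05, a difference of 1.88 between the days. A short not differential region beside it, chr14:35341251-35341750, with 68 and 45.8 tags on day 7, also overlapped the place. The joined locus chr14:35341251-35344250 had log2 ratios of 0.10 on day 4 and -0.80 on day 7. At Asb2, chr12:104584751-104586250 was border zone-higher on day 4, with 59 and 131 tags and a log2 ratio of 1.15. On day 7 it was overlapped by 2 sham-higher regions with 525 and 257 tags in sum and a log2 ratio of -1.03, a difference of 2.18. Between them lay a not differential region with 92 and 84.9 tags and a log2 ratio of -0.12. With it the joined locus of day 7 had 617 and 342 tags and a log2 ratio of -0.85, against 0.13 on day 4. On day 14 both places were not differential. The border zone-higher and sham-higher sequence shared by these days came to 1.5 kb, with 0.5 kb at Ldb3 and 1 kb at Asb2. The differences of 1.88 and 2.18 thus set unlike sequence side by side. They use only regions called in opposite directions, so their sign was fixed by that choice and nothing is read from their size.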

How the results depend on the processing

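Of 63 alternative values of the log2 ratio of summed tags, 59 lay below 0. Those for regions wholly inside the windows nearly all repeat the listed values. All 4 values not below 0 were Ldb3 on day 4, listed at -0.09. It became 0.02 with border zone tags scaled by the sum of listed tags, 0.10 without the region with the most tags, 0.36 as the median of the regions and 0.10 without regions of 5 kb or wider. With the day's median set to 0, Ldb3 gave -0.00024, -0.63 and -0.60 on days 4, 7 and 14, Fhl2 -0.17, -0.98 and -0.43, and Asb2 -0.23 and -0.99 on days 4 and 7. Scaled by summed tags, Ldb3 on day 7 gave -0.71, Fhl2 -0.15, -1.06 and -0.42 on days 4, 7 and 14, and Asb2 on day 4 -0.22. Without the region with the most tags, Ldb3 gave -0.58 and -0.19 on days 7 and 14, Fhl2 -1.06 and -0.58, and Asb2 on day 7 -1.04. As medians of regions, Ldb3 gave -0.71 and -0.26 on days 7 and 14, Fhl2 -0.77 and -0.43, and Asb2 -0.51, -0.97 and -0.60 on days 4, 7 and 14. Without regions of 5 kb or wider, Ldb3 gave -0.58 and -0.11 on days 7 and 14, Fhl2 -0.79 and -0.58, and Asb2 on day 7 -0.92. Fhl2 restricted to loci listed on all 3 days, chosen after seeing the data, gave -0.03 and -0.72 on days 4 and 7.

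At a fold of at least 2 the sham-higher regions fell to 0 at Fhl2 and 0 at Asb2 on day 4, and to 1 at Fhl2 and 1 at Asb2 on day 14. Joining days by midpoints within 250 bp left 1 locus at Ldb3, 0 at Fhl2 and 1 at Asb2 as sham-higher on at least 2 days, and without day 4 Fhl2 had 0. The only member region that crosses a window edge is chr14:35319251-35320250 at Ldb3 on day 4. Most of the 21 values for regions wholly inside the windows therefore rest on the same regions and could not change. Where a value moved, the cause was not tested.

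No paired analysis was possible because each condition has 1 library per day and the ATAC labels carry no replicate numbers. Few tags stood behind some calls. On day 4 the 8 border zone-higher member regions had 271 sham tags in sum. Intervals leave out the spread between animals, sorts and libraries, and would be wider if wide regions count a tag more than once.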
